A study of Mus musculus with 40 samples.

Results

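The zona pellucida genes Zp1, Zp2 and Zp3 encode the glycoproteins of the coat that surrounds the mouse egg. They were followed here through oocyte growth by choosing every probe set whose platform gene symbol is exactly Zp1, Zp2 or Zp3. This gave 3 probe sets of 22690 on the 430A array type, 1 per gene (Zp1 1450306_at, Zp2 1449016_at and Zp3 1419007_at), and 0 of 22475 on 430B. The series holds 40 samples, and the 20 samples hybridised to 430A carry the members. All 3 probe sets passed the filter on low signals.

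All samples were oocytes of SJLB6 female mice, taken as pools at 5 stages of follicle growth with 4 biological replicates each on 430A. Primordial follicle oocytes came from mice aged 2 days in pools of 400. Primary follicle oocytes came from mice aged 6 days in pools of 90, and secondary follicle oocytes from mice aged 12 days in pools of 60. Small antral follicle oocytes came from mice aged 17 days in pools of 30, and large antral follicle oocytes from mice aged 24 days in pools of 20. For 3 of the 4 small antral samples on 430B, which carry no member, the protocol instead names 12 days and pools of 60, as for secondary oocytes, and the small antral stage of their titles was kept. Stage cannot be told apart from the age of the mice or the size of the pool. The labels do not name the animals behind each replicate, so p-values measure the spread between these samples. The deposited primordial columns did not have the form of independent samples, as described below. The labels name no mutation and no treatment in any group.

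The zona pellucida is laid down by the growing oocyte, which secretes its glycoproteins and assembles them into filaments outside the cell. In the mouse, ZP2 and ZP3 build the repeating filament, ZP1 cross-links filaments, and ZP2 is a ligand for sperm that the cortical granule protease ovastacin cleaves after fertilization. FIGLA, a helix-loop-helix factor of germ cells, is required in mouse oocytes for expression of all 3 genes, and binds E-boxes of the form CANNTG together with the Tcf3 product E12.

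The promoter window of Zp3 is shown because the members' changes are set beside those of Figla and Tcf3 below. It comes from RefSeq on GRCm38.p6, chr5:135979855-135980154 on the + strand, with 250 bases before and 50 after the start of the gene. Capitals mark every match to CANNTG and to TATAA.
Zp3: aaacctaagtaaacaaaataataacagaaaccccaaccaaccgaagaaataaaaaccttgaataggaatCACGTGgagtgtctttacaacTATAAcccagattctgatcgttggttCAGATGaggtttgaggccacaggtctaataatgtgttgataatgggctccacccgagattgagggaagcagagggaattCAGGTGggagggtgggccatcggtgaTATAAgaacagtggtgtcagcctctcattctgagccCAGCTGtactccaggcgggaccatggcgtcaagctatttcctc
The window held 4 matches to CANNTG, a motif that reads the same on both strands, and the one farthest upstream, at -181 to -176 from the start site, was CACGTG. The motif TATAA matched on the gene strand at -160 to -156 and at -29 to -25, and no match overlapped another. Of 32851 promoter windows of the same length, 72.3% held CANNTG, 7.15% held CACGTG and 24.9% held TATAA on either strand. A match is a description of these letters and was not tested as a binding site.

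Signals below are MAS5 intensities scaled so that each array had a 2% trimmed mean of 500, in arbitrary units. A signal is a share of a fixed array total, so less Zp RNA per oocyte and more of other RNA cannot be told apart. Levels of different probe sets are not comparable, and the members are compared only by their changes and by ratios within an array. The deposited columns of primordial replicates 2 to 4 had the form of means with primordial replicate 1, which thereby made up 62.5% of the primordial average. The members' signals and changes at the primordial stage are therefore given for deposited and for unmixed values, formed as 2 times the deposited value minus replicate 1. Other primordial results are for deposited values unless unmixed values are named. The arrays were scaled anew for the unmixed fits, over the probe sets that could be unmixed, and the unmixed changes and percentages compare values of that scaling only. Deposited columns that share replicate 1 are not independent samples. The primordial SD of Zp2 was 4995 deposited and 10673 unmixed, each in its own scaling. The deposited fits take the columns as independent and pool their smaller spread into every comparison. Their standard errors were smaller than the unmixed ones for every member.

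Zp1, the cross-linker, had scaled signals of 2701, 3163, 2554 and 2609 in the 4 primordial samples. They were 17915, 14988, 16378 and 15005 in primary, 16198, 14073, 14543 and 13577 in secondary, 9380, 11868, 11960 and 11647 in small antral, and 10808, 8822, 9502 and 9610 in large antral samples. Zp1 was thus lowest in all 4 primordial samples and highest in primary and secondary samples, whose ranges overlapped. The stage means were 2757 ± 277, 16071 ± 1391, 14598 ± 1137, 11214 ± 1230 and 9685 ± 825 from primordial to large antral (SD, n = 4 each). The unmixed primordial signals of Zp1 were 2764, 3816, 2513 and 2687, still below every later sample.

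Zp2, the sperm ligand, had scaled signals of 14627, 25345, 21644 and 25096 in primordial samples. They were 21572, 19562, 20926 and 19639 in primary, 20767, 21707, 18703 and 19477 in secondary, 19912, 18757, 19017 and 16971 in small antral, and 14444, 13675, 14082 and 14567 in large antral samples. The primordial samples of Zp2 spanned the range of the primary samples, replicate 1 being the lowest, and the large antral samples lay below those of every other stage. The stage means were 21678 ± 4995, 20425 ± 988, 20163 ± 1336, 18664 ± 1232 and 14192 ± 402 in stage order (SD, n = 4 each). Unmixed, the primordial signals of Zp2 were 14967, 37759, 29759 and 37448, so that replicates 2 to 4 stood above every later sample and replicate 1 below all primary, secondary and small antral samples.

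Zp3, the other filament protein, had scaled signals of 9988, 13426, 10832 and 12097 in primordial samples. They were 23138, 22987, 23065 and 21904 in primary, 28128, 22657, 22992 and 23596 in secondary, 24716, 23144, 23975 and 20001 in small antral, and 17633, 13919, 14386 and 16339 in large antral samples. Zp3 formed 3 separate ranges, with primordial samples lowest, large antral samples next, and the 3 stages between them sharing one upper range. The stage means were 11586 ± 1502, 22774 ± 583, 24343 ± 2553, 22959 ± 2074 and 15570 ± 1730 in stage order (SD, n = 4 each). The unmixed primordial signals of Zp3 were 10220, 17712, 12162 and 15049, within or below the range of 14179 to 17977 that the large antral samples had in the same scaling.

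**Figure D1:**
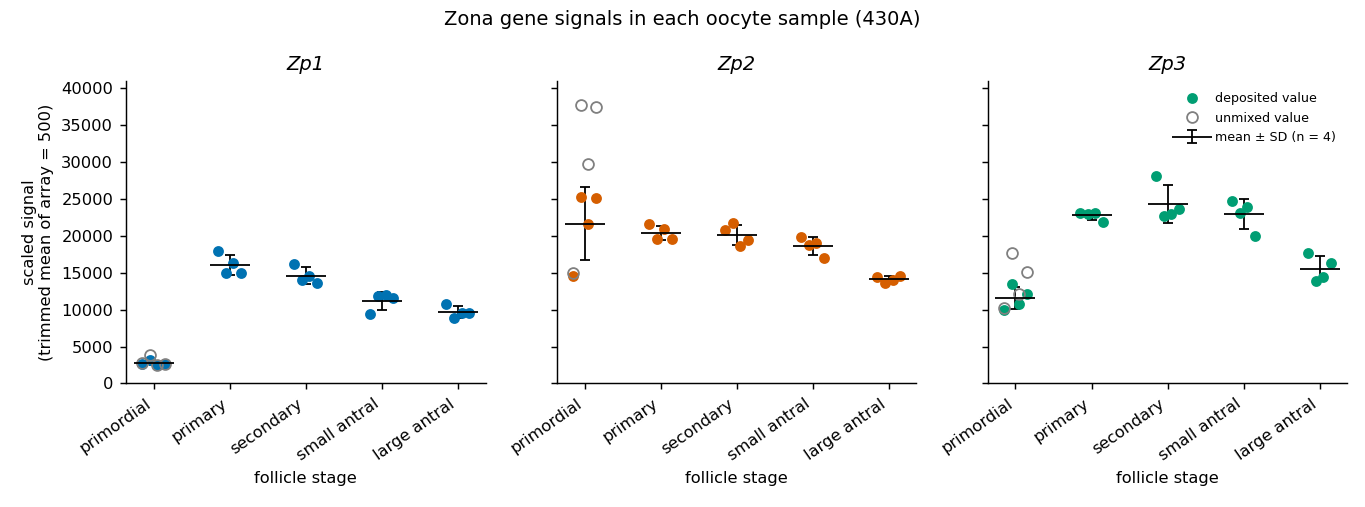
Scaled signal of Zp1, Zp2 and Zp3 (arbitrary units, linear axes from 0) in each of 20 samples at the 5 follicle stages; points are samples, lines are stage means with SD of the deposited values (n = 4), and open points are unmixed primordial values in their own scaling. Zp1 averaged 2757 in primordial samples and at least 9685 at every later stage, whereas the primordial samples of Zp2 span the level of the primary samples.

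In primary oocytes Zp1 was 5.78 times its primordial level and Zp3 1.97 times, while Zp2 did not pass the test. The log2 change was 2.53 ± 0.10 for Zp1 (limma, adjusted p = 3.6e-16) and 0.98 ± 0.10 for Zp3 (limma, adjusted p = 1.3e-08), each ± standard error. For neither gene did the samples of the 2 stages overlap. Zp2 differed by -0.05 ± 0.12 on the log2 scale (limma, adjusted p = 0.73), with a 95% interval from -0.30 to 0.19. These 2 rises among 3 members stand beside 26.5% of all 15845 tested probe sets called higher at this step and 56.5% called in either direction.

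With unmixed primordial values the log2 changes were 2.48 ± 0.13 for Zp1 (limma, adjusted p = 2.2e-12) and 0.78 ± 0.14 for Zp3 (limma, adjusted p = 6.9e-05). Zp2 then differed by -0.44 ± 0.19 (limma, adjusted p = 0.062). Without primordial replicate 1 the unmixed values of Zp2 were called lower in primary than in primordial oocytes, with a log2 change of -0.74 (limma, adjusted p = 1.1e-07). With that column left out of the deposited values the change was -0.23 (limma, adjusted p = 0.0092). The other deposited primordial columns still hold replicate 1, so this second fit is not one without it. Quantile normalization turned the direction of Zp2, to 0.29 (limma, adjusted p = 0.0225). Expressed as a percentage of its primary mean, the primordial mean was 17.2% for Zp1, 106% for Zp2 and 50.9% for Zp3, and 18.0%, 144% and 59.3% with unmixed values.

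The control probe sets for Actb, which read the 3' and 5' ends of the same transcript, gave a log2 ratio between 1.77 and 2.44 in the primordial columns as deposited. Unmixed, this ratio was 1.77, 5.94, 3.03 and 6.24 in replicates 1 to 4, an order that the unmixed Zp2 signals shared except for the order of replicates 2 and 4. The same ratio for Gapdh did not have that order, with 1.79, 1.61 and 1.65 unmixed in replicates 1, 2 and 4 and no unmixed value in replicate 3. The deposited control probe sets do not all have the form of a mean, primary oocytes have no control values on this array type, and the part of RNA quality in the Zp2 values was not tested.

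Between primary and secondary follicles none of the 3 members passed the limma test (0 of 3 also at an unadjusted p under 0.05), against 18.2% of all tested probe sets. Secondary minus primary was -0.14 on the log2 scale for Zp1 (95% interval -0.34 to 0.07), -0.02 for Zp2 (-0.27 to 0.23) and 0.09 for Zp3 (-0.12 to 0.30). The samples of the 2 stages overlapped for all 3 genes, and with 4 arrays a stage a change within these intervals is not excluded.

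From secondary to small antral follicles, Zp1 fell and the other members did not pass the test. Zp1 averaged 11214 in small antral and 14598 in secondary oocytes, a log2 change of -0.38 ± 0.10 (limma, adjusted p = 0.0081), and the samples did not overlap. Zp2 and Zp3 changed by -0.11 and -0.08 (limma, adjusted p = 0.61 and 0.66). The ratios of Zp1 to Zp2 and of Zp1 to Zp3 overlapped between the stages and were not called different (exact permutation test, adjusted p = 0.086 and 0.12). An unequal change of the members was thus not shown at this step. Of all tested probe sets, 10.1% were called lower at this step. The call for Zp1 was lost in the fit with unmixed primordial values (limma, adjusted p = 0.068), whose larger primordial spread enters every comparison, and held in the fit without the primordial stage (limma, adjusted p = 0.0035).

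At the last step, from small to large antral follicles, the filament genes Zp3 and Zp2 fell and Zp1 did not pass the test. Zp3 averaged 15570 in large antral and 22959 in small antral oocytes, a log2 change of -0.56 ± 0.10 (limma, adjusted p = 0.0013). Zp2 averaged 14192 in large antral and 18664 in small antral oocytes, a log2 change of -0.39 ± 0.12 (limma, adjusted p = 0.037). The samples of the 2 stages did not overlap for either gene. Zp1 changed by -0.21 ± 0.10 (limma, adjusted p = 0.19), with overlapping samples. Its ratios to Zp2 and to Zp3 were not called different between the stages (exact permutation test, adjusted p = 0.22 and 0.057). The background share called lower was 5.67%.

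The call for Zp2 at this step was near the threshold. It was lost when any of 7 of the 8 samples was left out, with unmixed primordial values (limma, adjusted p = 0.33) and with quantile normalization (-0.018, limma, adjusted p = 0.94), and was stronger in the fit without the primordial stage (limma, adjusted p = 0.00048). Zp3 kept its call in each of these except quantile normalization, where its change was -0.13 (limma, adjusted p = 0.30).

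Across the whole span from primary to large antral follicles all 3 members fell, though Zp2 lost its call with quantile normalization (-0.20, limma, adjusted p = 0.136). The log2 changes were -0.73 for Zp1 (limma, adjusted p = 1.8e-06), -0.52 for Zp2 (limma, adjusted p = 0.0010) and -0.55 for Zp3 (limma, adjusted p = 1.0e-04), so that levels were 1.66-fold, 1.44-fold and 1.47-fold lower. No large antral sample reached the lowest primary sample of the same gene. Of all tested probe sets 21.3% were called lower over this span. Large antral means were 60.3%, 69.5% and 68.4% of the primary means of Zp1, Zp2 and Zp3.

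Set against the primordial stage instead, the members ended in different positions. Zp1 was higher in large antral than in primordial oocytes by 1.80 on the log2 scale (limma, adjusted p = 6.5e-14), and Zp2 was lower, with a log2 change of -0.58 (limma, adjusted p = 1.7e-04) that quantile normalization turned to 0.089 (limma, adjusted p = 0.48). Zp3 was higher by 0.43 (limma, adjusted p = 7.4e-04). Of all tested probe sets 30.2% were called higher and 34.6% lower. Unmixed, the changes were 1.75, -0.96 and 0.23, and Zp3 no longer passed the test (limma, adjusted p = 0.17), except without primordial replicate 2 (0.36, limma, adjusted p = 0.022).

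**Figure D2:**
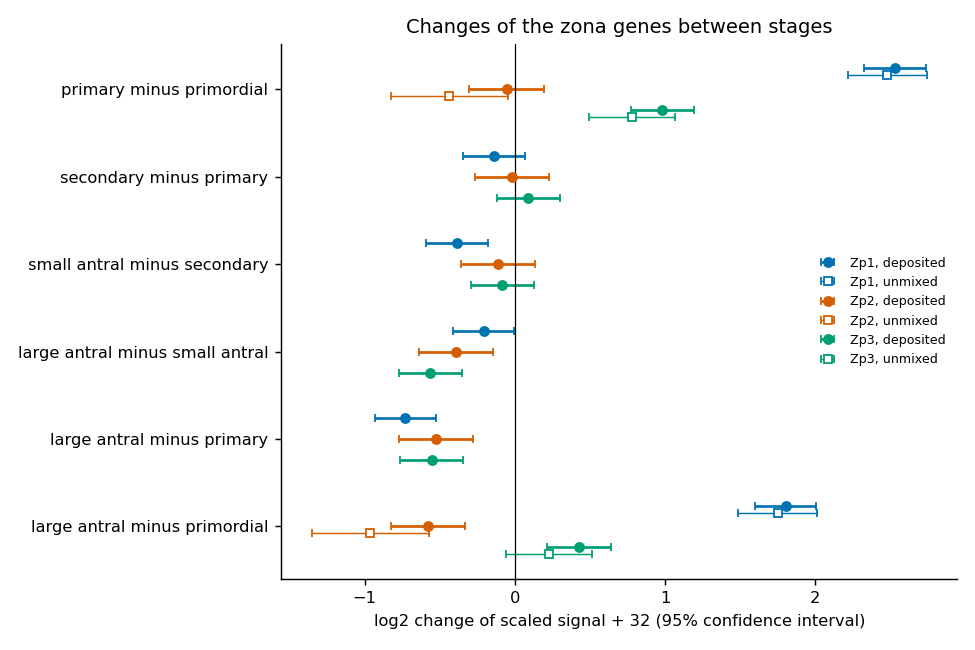
Log2 change (later minus earlier stage) of Zp1, Zp2 and Zp3 in the 6 stage comparisons, from deposited and from unmixed primordial values; bars are 95% intervals from the limma fit. The largest change is that of Zp1 from primordial to primary follicles, 2.53, and all 3 members lie below 0 from primary to large antral follicles.

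Ratios within an array do not depend on how the array was scaled. The mean log2 ratio of Zp1 to Zp2 was -2.95, -0.35, -0.47, -0.74 and -0.55 from primordial to large antral, where only the changes carry meaning. It was higher in primary than in primordial samples by 2.60, a 6.06-fold shift, and by 2.93 with unmixed values. Every primary array stood above every primordial one.

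The log2 ratio of Zp1 to Zp3 differed by 1.56 for primary minus primordial samples, by -0.23 for secondary minus primary samples and by 0.35 for large minus small antral samples. The ratio of Zp3 to Zp2 was higher by 1.04 in primary than in primordial samples and its means then lay between 0.13 and 0.30, with a difference of -0.03 from primary to large antral (exact permutation test, two-sided, p = 0.686). Over the 18 ratio comparisons, 9 gave 0.0286, the smallest p that 4 against 4 arrays allow, and none passed after Benjamini-Hochberg adjustment over the 18 (adjusted p = 0.0571 at best).

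One small antral array set part of the later Zp1 ratios. Without small antral replicate 1, Zp1 to Zp3 was higher in large than in small antral samples by 0.23 in place of 0.35. Zp1 to Zp2 was then higher in large than in small antral samples by 0.07 in place of 0.19, and the difference of small antral minus secondary samples was -0.16 in place of -0.27.

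**Figure D3:**
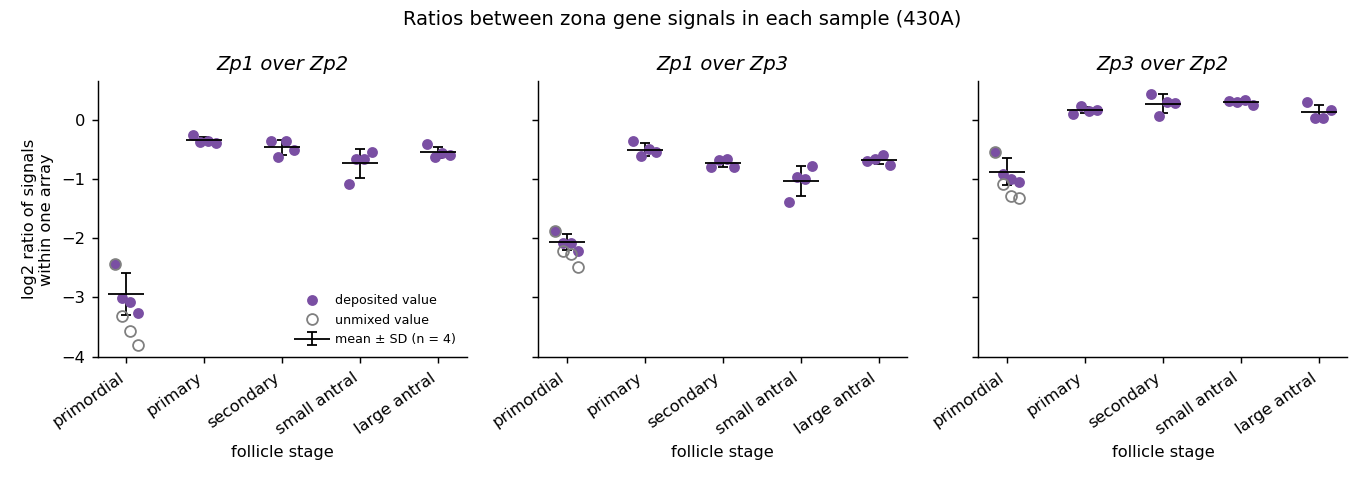
Log2 ratio of the signals of 2 members within each of 20 arrays, by follicle stage; points are arrays, open points are unmixed values, and lines are means with SD of the deposited values (n = 4). The ratio of Zp1 to Zp2 averages -2.95 in primordial and -0.35 in primary samples, while the ratio of Zp3 to Zp2 stays between 0.13 and 0.30 from primary follicles on.

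At the antral stages the members were near the bright end of the array, and most of the brightest probe sets were lower in large antral samples. In large antral samples 17 to 26 probe sets were brighter than Zp3, against 10 to 19 in small antral samples. For Zp2 the numbers were 28 to 36 in large antral and 24 to 33 in small antral samples, and for Zp1 they were 92 to 135 in large antral and 74 to 171 in small antral samples. In primordial samples 1038 to 1340 probe sets were brighter than Zp1. The highest signal on an array was 21973 to 25542 in large antral and 28935 to 39043 in small antral samples.

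Of the 100 other tested probe sets with the highest mean signal, 92 were lower in large than in small antral samples, with a median log2 change of -0.33. Zp3 fell further than all but 9 of them and Zp2 further than all but 38, while 75 changed further down than Zp1. From secondary to small antral follicles the same kind of set had a median change of 0.0034 with 48 lower, and 4 of the 100 fell further than Zp1. From primary to large antral follicles 72 were lower with a median of -0.26, and 15, 26 and 25 fell further than Zp1, Zp2 and Zp3. The part of this shift of bright probe sets in the members' changes was not tested.

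**Figure D4:**
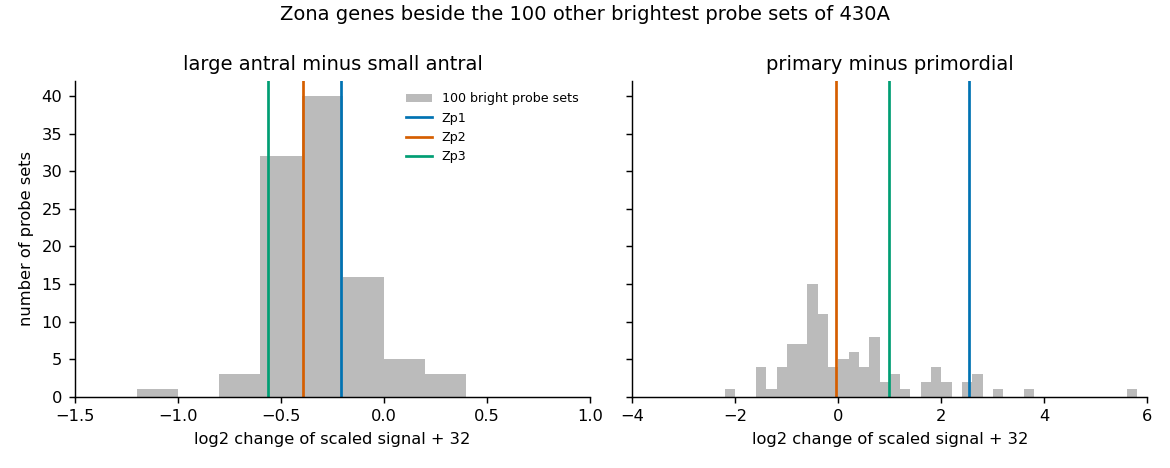
Log2 change (later minus earlier stage) of the 100 brightest other probe sets (grey histogram, number of probe sets) and of Zp1, Zp2 and Zp3 (coloured lines), for large minus small antral and for primary minus primordial follicles. In the step from small to large antral follicles 92 of the 100 lie below 0, and Zp3 lies below all but 9 of them.

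Samples of the same stage deviated from their stage mean partly together. Over the 20 arrays the correlation of these log2 deviations was 0.654 between Zp3 and Zp2, 0.438 between Zp1 and Zp3 and 0.161 between Zp1 and Zp2. Over the 16 arrays without the primordial stage the values were 0.572, 0.348 and 0.114. The points share an array, its scaling and its RNA, so these values are a description.

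Among 9592 genes, those whose log2 signals over the 20 arrays were most like Zp1 by Pearson correlation were Nup107 (0.983), a nuclear pore subunit, Arid1a (0.983), a subunit of the BAF chromatin remodelling complex, and Slc6a4 (0.980), the serotonin transporter. Most like Zp2 were Rpa1 (0.936), which binds single-stranded DNA, Ldhb (0.916), a lactate dehydrogenase subunit, and Psmb3 (0.908), a proteasome subunit. Most like Zp3 were Cisd1 (0.959), an iron-sulfur protein of the outer mitochondrial membrane, D230025D16Rik (0.953) and Ninj1 (0.939), a protein of membrane rupture. With unmixed primordial values the 9 correlations lay between 0.809 (Ninj1) and 0.979 (Arid1a). Over the 16 later arrays they lay between 0.789 (Slc6a4) and 0.92 (Ninj1). None of the 9 genes was then among the 3 most like its member, which were Tprkb, Uqcc3 and Sh3glb1 for Zp1, Chdh, Eef1a1 and Pebp1 for Zp2, and Ldhb, Rpa1 and Hsp90aa1 for Zp3. The genes named for likeness thus depended on the primordial arrays, and arrays of 1 stage are not independent points of the pattern.

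Figla, the factor required for zona gene expression, fell through oocyte growth. It had scaled signals of 9977, 6675, 7685 and 7022 in primordial samples, and averages of 7840 ± 1485, 2542 ± 306, 1345 ± 23.8, 800.1 ± 135 and 613.9 ± 58.6 in stage order (SD, n = 4 each). Figla was thus highest in primordial oocytes, and each of its stage means was below the one before. In primordial oocytes the means of Zp1 and Zp3 were lowest and that of Zp2 was highest, though Zp2 was not called different from primary. The log2 change of Figla was -1.60 ± 0.13 from primordial to primary (limma, adjusted p = 1.25e-10, and -1.10 unmixed), -0.90 to secondary, -0.74 to small antral and -0.36 to large antral, where it missed the threshold (limma, adjusted p = 0.074).

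Tcf3 averaged 1028 in primary and 716.9 in primordial oocytes, a rise of 0.51 on the log2 scale (limma, adjusted p = 7.9e-04), and fell by 1.02 from primary to large antral follicles (limma, adjusted p = 1.9e-07). Sohlh1, an early germ cell factor read on 430B, averaged 3838 in primary and 25186 in primordial oocytes, a log2 change of -2.67 (limma, adjusted p = 3.3e-12, and -1.45 unmixed). Nobox, a homeobox factor of oocytes, rose by 0.39 to the primary stage (limma, adjusted p = 0.0077) and by 0.37 from primary to large antral (limma, adjusted p = 0.015), the second call being lost with unmixed values and without large antral replicate 4. Lhx8, a LIM homeobox factor, fell by 0.50 to the primary stage (limma, adjusted p = 2.8e-04) and differed by -0.14 between large antral and primary oocytes (limma, adjusted p = 0.33).

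Of the 11 regulators listed, 2 were called higher and 8 lower from primordial to primary, with a median log2 change of -0.68, and 2 higher and 7 lower from primary to large antral, with a median of -0.86. On 430A, which read 8 of them, 26.5% and 30% of all tested probe sets were called higher and lower in the first comparison and 19.3% and 21.3% in the second, with medians of -0.076 and -0.0034. Sohlh1, Sohlh2 and Taf4b were read on 430B, where 12% and 19.7% of tested probe sets were called higher and lower in the first comparison. In the second comparison the 430B shares were 7.44% and 8.23%. With unmixed values the counts were 2 higher and 7 lower in the first comparison and 1 higher and 7 lower in the second.

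Of the genes that act on the finished zona or at the egg surface, Astl and Cd9 rose to the primary stage and fell from primary to large antral follicles. Astl, which encodes ovastacin, was read on 430B and averaged 5161, 35428, 36131, 27924 and 21865 in stage order. Of its small antral values of 26096, 26764, 28470 and 30364, those of replicates 2 to 4 come from the samples whose protocol names the secondary age and pool. It rose by 2.78 on the log2 scale from primordial to primary (limma, adjusted p = 5.0e-17, and 2.99 unmixed) and fell by 0.70 from primary to large antral (limma, adjusted p = 5.4e-06). Cd9, a tetraspanin needed for sperm-egg fusion, averaged 2274 ± 139 in primary and 838.3 ± 278 in primordial oocytes (SD). The log2 change of Cd9 was 1.45 ± 0.18, and 3.03 ± 0.52 unmixed (± standard error), so the unmixed size is the less precise. Large antral oocytes averaged 742.1 ± 121 (SD), a fall of 1.59 from primary.

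All 4 listed genes of this group were tested, of which Astl, Cd9 and Izumo1r, the sperm receptor JUNO, were called higher from primordial to primary. Fetub, an inhibitor of ovastacin, was called lower at that step, though not with unmixed values, and higher from primary to large antral, where Astl and Cd9 were lower. The shares over all probe sets are those given for the regulators. The medians of the 4 log2 changes were 1.33 and -0.19. Gdf9, a growth factor secreted by oocytes, averaged 26831 in primary and 5053 in primordial oocytes, a log2 change of 2.42, and 20908 in large antral oocytes. Its change of -0.36 from primary to large antral (limma, adjusted p = 0.0064) was -0.03 with quantile normalization (limma, adjusted p = 0.805) and lost its call with unmixed values (limma, adjusted p = 0.0732).

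Of 35 listed genes that process or glycosylate proteins on the secretory path 33 were tested, and 11 were called higher and 12 lower from primordial to primary (median log2 change -0.10, and 8 each with unmixed values), beside 26.5% and 30% of all tested 430A probe sets. From primary to large antral 3 were called higher and 15 lower (median -0.26), beside 19.3% and 21.3%. Furin, a protease that cleaves at the basic site of secreted proteins, rose by 0.84 from primordial to primary (limma, adjusted p = 8.5e-06). Hspa5, the main chaperone of the endoplasmic reticulum, rose by 1.08 (limma, adjusted p = 1.1e-10) and then fell by 0.59 from primary to large antral (limma, adjusted p = 4.1e-06), though another probe set of Hspa5 was called the opposite way at the first step.

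C1galt1, which extends O-linked sugars, averaged 254.9 ± 40.1 in primary and 1064 ± 58.3 in primordial oocytes, a log2 change of -1.94 (limma, adjusted p = 4.3e-11), and rose by 0.64 from primary to large antral (limma, adjusted p = 8.8e-04). Mgat1, which starts complex N-linked sugars, changed by -0.10 at the first step (limma, adjusted p = 0.52) and rose by 0.64 from primary to large antral (limma, adjusted p = 2.9e-04).

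Of 16 listed relatives that carry a ZP module or a ZP-N domain, 12 were tested, 3 of them (Umodl1, Oosp2 and Oosp3) on 430B. From primordial to primary 6 were called higher and 4 lower, with a median log2 change of 0.40 (5, 4 and 0.15 with unmixed values), beside 26.5% and 30% of all tested probe sets on 430A and 12% and 19.7% on 430B. From primary to large antral 3 were called higher (Umodl1, Dmbt1 and Oosp3) and 0 lower by limma (0 also at an unadjusted p under 0.05), with a median of 0.23, beside 19.3% and 21.3% on 430A and 7.44% and 8.23% on 430B.

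Oosp1, an oocyte-secreted protein, averaged 17224 in primary and 4124 in primordial oocytes, a log2 change of 2.18 (1.62 unmixed), and changed by -0.11 from primary to large antral (limma, adjusted p = 0.73). Umodl1, a membrane protein with a ZP module, averaged 1332, 22466, 33730, 40902 and 34548 in stage order, and its small antral value was 41554 in replicate 1, the one 430B sample of that stage without the doubtful protocol. It rose by 4.06 from primordial to primary (3.88 unmixed) and by a further 0.62 from primary to large antral (limma, adjusted p = 7.3e-05).

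**Figure D5:**
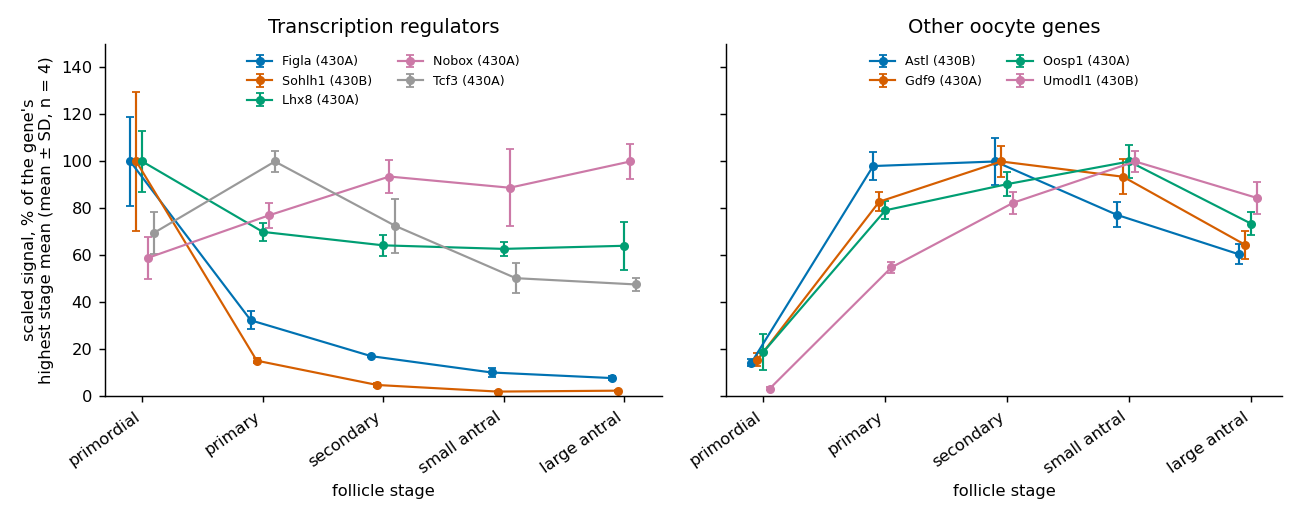
Mean scaled signal, as a percentage of the gene's highest stage mean (± SD, n = 4), of 5 transcription regulators (left) and 4 other oocyte genes (right) at the 5 follicle stages. Figla and Sohlh1 are highest in primordial samples, with means of 7840 and 25186, whereas Astl, Gdf9, Oosp1 and Umodl1 are lowest there.

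The labelled cell type was checked against marker genes. All 8 oocyte markers of 430A averaged at least 100 at every stage, and their summed signal per array was 34044 to 40333 in primordial, 66455 to 70557 in primary, 74485 to 78103 in secondary, 67215 to 73410 in small antral and 52308 to 57309 in large antral samples. Of 10 granulosa cell markers 4 to 5 averaged at least 100, with summed signals between 870.2 in a primordial and 2008 in a small antral sample, and Amh, Inhba, Cyp11a1 and Wt1 were under 100 at every stage. Fshr, Inha, Nr5a2 and Kitl were above 100 at every stage, with Nr5a2 averaging 187.3, 669.2, 997.8, 908.6 and 611.4 and Inha 277.7, 222.7, 269.6, 434.9 and 568.1 in stage order. Hsd17b1 averaged 21.5 in primordial samples and reached 100 only in large antral samples (111). Fst reached 100 only in primordial samples (104). Of 9 markers of theca, stroma and fibroblasts 3 to 5 averaged at least 100, with sums of 1351 to 1957 in primordial and 867 to 1189 in large antral samples, and Cyp17a1, Col3a1, Lum and Pdgfra were under 100 throughout. Col1a2, Acta2 and Star were above 100 throughout, and Dcn averaged 31.7 in primary and 302.2 in primordial samples and Star 199 in primary and 361.7 in primordial samples. Of 6 surface epithelium markers 2 to 3, and of 5 blood and endothelium markers 0 to 1, averaged at least 100. The summed oocyte markers were lowest in primordial samples, though Ddx4 and Nlrp5 were highest there (2735 and 21387) and Kit was lowest in small antral samples (2306). The part of other cells in the members' signals was not tested.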

How the data were processed

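Transcripts of pooled mouse oocytes were amplified and hybridised to the 430A and 430B array types, per the labels' protocols. The values the authors deposited are a linear intensity per probe set, made with MAS5 per the submitters' processing notes, with the version not given in the sources used here. No unassigned sample column was left over (0).

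Here the arrays were brought to a common 2% trimmed mean (500), and tests used log2(signal + 32), which understates changes of low signals. Probe sets reaching 100 on at least 4 of 20 arrays were tested, 15845 on 430A and 19115 on 430B. Each array type had its own limma fit (limma 3.58.1, R 4.3.3) over its 20 arrays, with stage as the single factor, moderated variances with a trend on the mean, 15 residual degrees of freedom and two-sided tests. Standard errors and 95% intervals come from that fit, and calls are at a Benjamini-Hochberg adjusted p under 0.05 over the table. Ratios of 2 members were tested by exact permutation of 4 against 4 arrays, which treats the deposited primordial columns as independent. The number of arrays limits the precision.

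Primordial replicates 2 to 4 of 430A had the form of means with replicate 1. Unmixing gave 0 negative values over 22526 probe sets, with 100 probe sets that lie off the value grid left out, none of them a member. Replicate numbers did not pair samples: 40 same-numbered pairs correlated between -0.11 and 0.132 in their deviations from stage means, with 3 over 0.1.

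The members, gene lists and alternatives were chosen with earlier results of these data known. A list gene is represented by its brightest tested 430A probe set, and by 430B where 430A has none. Genes named are the members, 14 fixed genes (13 from the lists, and Gdf9), list genes where a count is spelled out, and for each member the 3 genes of highest correlation. In simulated arrays, log2 changes of 0.5, 1, -1 and 2 added to 50 probe sets each in the secondary to small antral comparison were recovered in 16, 39, 37 and 50, with 6 false calls among 15845. The simulated noise was independent between probe sets, and far fewer probe sets were changed than were called in the data. These rates therefore need not hold for the comparisons above. Alternatives were other scalings, pseudocounts of 1 and 100, no filter, no trend, other sets of arrays, a replicate block, unmixed primordial values and leaving out each replicate.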

Additional observations from a re-analysis of the deposited data

Results flagged for a closer look

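Zp1 in the small antral samples had 1 sample far from the others. Replicate 1 had a scaled signal of 9380 and the other 3 lay between 11647 and 11960, so that the gap made up 0.879 of the range, above Dixon's critical value for 4 samples. The same array had the highest Zp2 (19912) and the highest Zp3 (24716) of its stage.

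Zp3 in the primary samples also had 1 sample apart. Replicate 4 had 21904 and the others 22987 to 23138, a gap of 0.878 of the range, in a group whose whole spread is small (SD 583). In all, 15 groups of a gene and a stage were checked, and chance flags about 1 in 20.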

How the results depend on the processing

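Zp2 was the member that moved with the processing. From primordial to primary its log2 change of -0.05 was 0.29 with quantile normalization (adjusted p = 0.0225), and -0.23 to 0.032 with 1 deposited column left out. From small to large antral it was -0.39 without the filter, without the trend and with unmixed values (adjusted p = 0.0866, 0.075 and 0.33), -0.018 with quantile normalization (adjusted p = 0.94), and -0.44 to -0.36 with 1 replicate left out. From primary to large antral it was -0.20 with quantile normalization (adjusted p = 0.136), and from primordial to large antral 0.089 (adjusted p = 0.48), or -0.050 (adjusted p = 0.778) when unmixed values were quantile normalized, an alternative chosen after seeing the data. For Zp3, quantile normalization gave -0.13 from small to large antral (adjusted p = 0.303) and unmixed values 0.23 from primordial to large antral (adjusted p = 0.171). For Zp1, unmixed values gave -0.38 from secondary to small antral (adjusted p = 0.0684). Quantile normalization forces equal distributions on arrays whose bright ends differed, as described above. The part of this in the moved changes was not tested.

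With the replicate number as a replicate block no call of a member changed, and Zp2 from small to large antral stayed at -0.39 (adjusted p = 0.0499). The same-numbered samples share only a number, and paired sign-flip tests of the ratios cannot go below 0.125.

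With unmixed values 1 regulator was called higher from primary to large antral, and 0 zona cleavage genes lower from primordial to primary. Relatives called lower from primordial to primary were 2 with median scaling and 2 with quantile normalization, and 1 was lower from primary to large antral when any probe set could count. Calls over all probe sets with unmixed values were 1226 from primary to secondary (main setting 2887), 1268 from secondary to small antral (2577) and 395 from small to large antral (1643). Median scaling moved the median of all probe sets from primordial to primary to 0.067, where it was -0.076, and the share of calls that were higher to 57% in place of 46.9%. Over all settings 305 of 324 member changes and 585 of 598 changes of named genes kept their side of the threshold and any called direction. Among the other member changes 2 turned direction, both for Zp2 with quantile normalization. They were 0.29 from primordial to primary and 0.089 from primordial to large antral. A turn of direction between uncalled values counts as kept. Zp2 from primary to secondary was such a case, at -0.056 to 0.016 with 1 replicate left out. No ratio test passed the threshold after adjustment, so the ratios are left out of these counts.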
